A study of Mus musculus with 8 samples.

Results

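NRF2, encoded by Nfe2l2, its inhibitor gene Keap1 and 8 NRF2 target genes (Nqo1, Gclc, Gclm, Hmox1, Txnrd1, Srxn1, Slc7a11 and Osgin1) were followed in mouse liver RNA. These 10 genes were taken by symbol, through their Ensembl identifiers, from the 52636 genes in the count tables, and all 10 were found. The samples were livers of 8 Wild-type male C57BL/6J mice, 4 injected with AAV8-TBG-GFP (AAV8-GFP, mice 303, 311, 314 and 315) and 4 with AAV8-TBG-AGXT (AAV8-AGXT, mice 308, 309, 316 and 319). AAV8 is an adeno-associated virus that reaches the liver, TBG is a promoter active in hepatocytes, GFP is a fluorescent control protein, and AGXT, here the human gene, is the enzyme that turns glyoxylate into glycine. Mice of both groups were injected at 7 weeks of age, were fed the high-fat, high-cholesterol, high-fructose NASH diet from 8 weeks of age for 24 weeks, and gave 1 library each, so mice without the diet or without virus were not part of the comparison. The transgene was under a hepatocyte promoter, whereas the RNA came from whole liver, in which fewer cells of a type and less RNA per cell cannot be told apart.

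NRF2 is a transcription factor that KEAP1 binds in the cytoplasm and hands to a CUL3 ubiquitin ligase for degradation. Oxidants and electrophiles modify KEAP1, whereupon NRF2 accumulates, pairs with small MAF proteins and activates genes through antioxidant response elements. NRF2 activity is therefore set largely at the protein level, which RNA counts do not measure. In liver its target genes supply glutathione, reduce thioredoxin and quinones, break down heme and provide NADPH.

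The core letters of the antioxidant response element, TGACNNNGC, were searched on both strands of RefSeq promoter windows of 300 bases on GRCm38.p6, from 250 bases before a start site to 50 after. Among the 8 genes with a window, 4 held the letters in at least 1 window, and over all 27025 genes with a window 14.0% did. No other motif was searched. The 4 matches are shown because they are what these windows hold of the NRF2 binding letters, each 5′ to 3′ on the strand that reads TGAC, with the matched bases in capitals.
Nfe2l2, minus strand of chr2:75704885-75704913, 232 to 240 bases before the start site: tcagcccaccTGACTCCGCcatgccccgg
Gclm, minus strand of chr3:122245413-122245441, 126 to 134 bases before the start site: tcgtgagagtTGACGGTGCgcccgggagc
Txnrd1, minus strand of chr10:82859104-82859132, 84 to 92 bases before 1 of its 3 start sites: cgtgtcagaaTGACAAAGCaaaaatccag
Srxn1, minus strand of chr2:152105542-152105570, 28 to 36 bases after the start site: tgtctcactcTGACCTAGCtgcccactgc
The windows of Keap1, Nqo1, Slc7a11 and Osgin1 did not contain these letters, and elements farther from the start sites were not searched. Gclc and Hmox1 had no window.

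The libraries held 17095433 to 28780140 counted read pairs, 62.4% to 69.1% of all tallied pairs in 7 mice and 56.3% in AAV8-AGXT mouse 308. Levels are normalized counts-per-million (CPM, scaled by TMM factors), given per mouse or as mean ± SD with n = 4 mice in each group. Differences are log2 fold changes of AAV8-AGXT over AAV8-GFP with their standard errors (SE), from the quasi-likelihood test of edgeR, and p-values were adjusted by the Benjamini-Hochberg method over 15248 tested genes. At an adjusted p under 0.05, 4.35% of these genes differed, 2.45% higher and 1.90% lower. With counts scaled by library totals alone, the median of all tested genes moved by -0.24 on the log2 scale, and the split turned from 374 higher and 290 lower to 144 higher and 857 lower genes. Reads on the mouse Agxt gene came to 164 ± 15.8 CPM with AAV8-GFP and 305 ± 98.3 CPM with AAV8-AGXT, with a log2 fold change of 0.90 (edgeR adjusted p = 0.0489), although this row does not separate endogenous RNA from any reads of the human transgene that aligned there. The Agxt call was kept in 4 of 16 alternatives, and of the fits without 1 mouse only that without mouse 309 kept it (edgeR adjusted p = 0.0532 to 0.146 in the other 7). The sum of 5 hepatocyte markers was between 42234 and 50636 CPM with AAV8-GFP and between 51620 and 73094 CPM with AAV8-AGXT.

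Of the 10 genes, 1 passed the adjusted threshold in edgeR. Osgin1 was lower in AAV8-AGXT mice, Nfe2l2 and Keap1 did not overlap between the groups but missed the adjusted threshold, and the other 6 tested genes overlapped. Slc7a11 was too scarce to be tested. The 1 lower call among 9 tested genes stands beside 1.90% of all tested genes, and no member was called higher, beside 2.45%. At an unadjusted p under 0.05 the same test had 1 member higher and 2 lower, beside 13.5% and 12.6% of all tested genes, or 26.2% in either direction. Log2 fold changes were below 0 for 6 of the 9, beside 47.7% of all tested genes, and their median was -0.37, beside 0.018. The 3 that were above 0, Keap1, Txnrd1 and Srxn1, turned below 0 with total-count scaling.

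**Figure D1:**
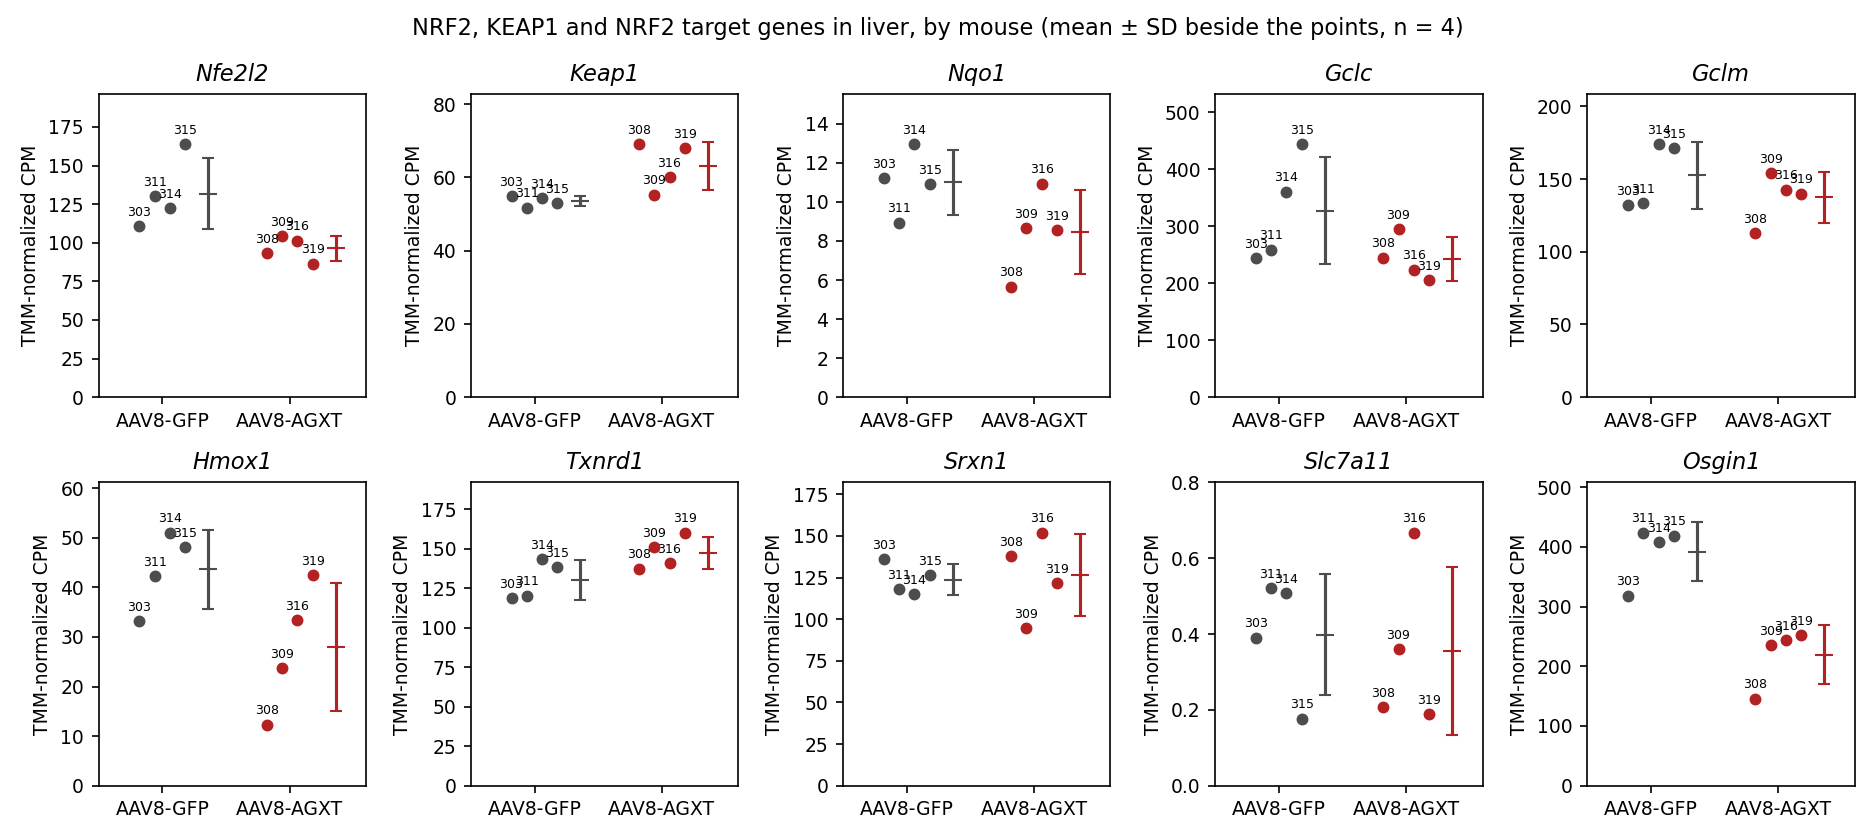
TMM-normalized CPM (vertical axes, each from 0) of the 10 genes in the liver of each mouse, labelled by animal number, with mean ± SD of 4 mice beside the points. Osgin1 and Nfe2l2 lie below all AAV8-GFP values in the 4 AAV8-AGXT mice, Keap1 lies higher, and the other genes overlap.

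Osgin1 (ENSMUSG00000074063, chromosome 8, 119434124 to 119446256 on GRCm38, plus strand) encodes oxidative stress induced growth inhibitor 1, a protein induced by oxidized lipids. It had 318, 424, 408 and 418 CPM in AAV8-GFP mice 303, 311, 314 and 315. In AAV8-AGXT mice 308, 309, 316 and 319 it had 146, 235, 244 and 252 CPM. Every AAV8-AGXT mouse was below every AAV8-GFP mouse, with the lowest value in mouse 308. Osgin1 fell from 392 ± 49.9 to 219 ± 49.4 CPM, a log2 fold change of -0.84 ± 0.19 (SE, edgeR adjusted p = 0.0425). The DESeq2 Wald test also called it (adjusted p = 0.000913), where 6.11% of the genes with an adjusted p were called lower and 12.4% in either direction. The direction stayed when any mouse was left out, with log2 fold changes from -0.93 to -0.70, but the edgeR call was lost in 7 of 8 such fits. The adjusted p from edgeR was then 0.0554 without mouse 303, 0.146 without 311, 0.101 without 314, 0.0596 without 315, 0.0521 without 309, 0.0557 without 316 and 0.0885 without 319, and it was 0.0493 without mouse 308.

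Nfe2l2 (ENSMUSG00000015839, chromosome 2, 75675513 to 75704641, minus strand), the gene of NRF2 itself, had 111, 130.3, 122 and 164 CPM in AAV8-GFP mice 303, 311, 314 and 315. The AAV8-AGXT mice 308, 309, 316 and 319 had 93.3, 104, 101 and 86.5 CPM. All 4 AAV8-AGXT values lay below the lowest AAV8-GFP value, and mouse 315 stood above the other AAV8-GFP mice. The means were 132 ± 22.9 and 96.3 ± 8.01 CPM, a log2 fold change of -0.45 ± 0.13 (SE, edgeR adjusted p = 0.0787). DESeq2 called Nfe2l2 lower (adjusted p = 0.0212), and edgeR called it when counts were scaled by library totals alone (log2 fold change -0.68, adjusted p = 0.0344). Leaving out single mice gave log2 fold changes between -0.53 and -0.33, and no such fit called it.

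**Figure D2:**
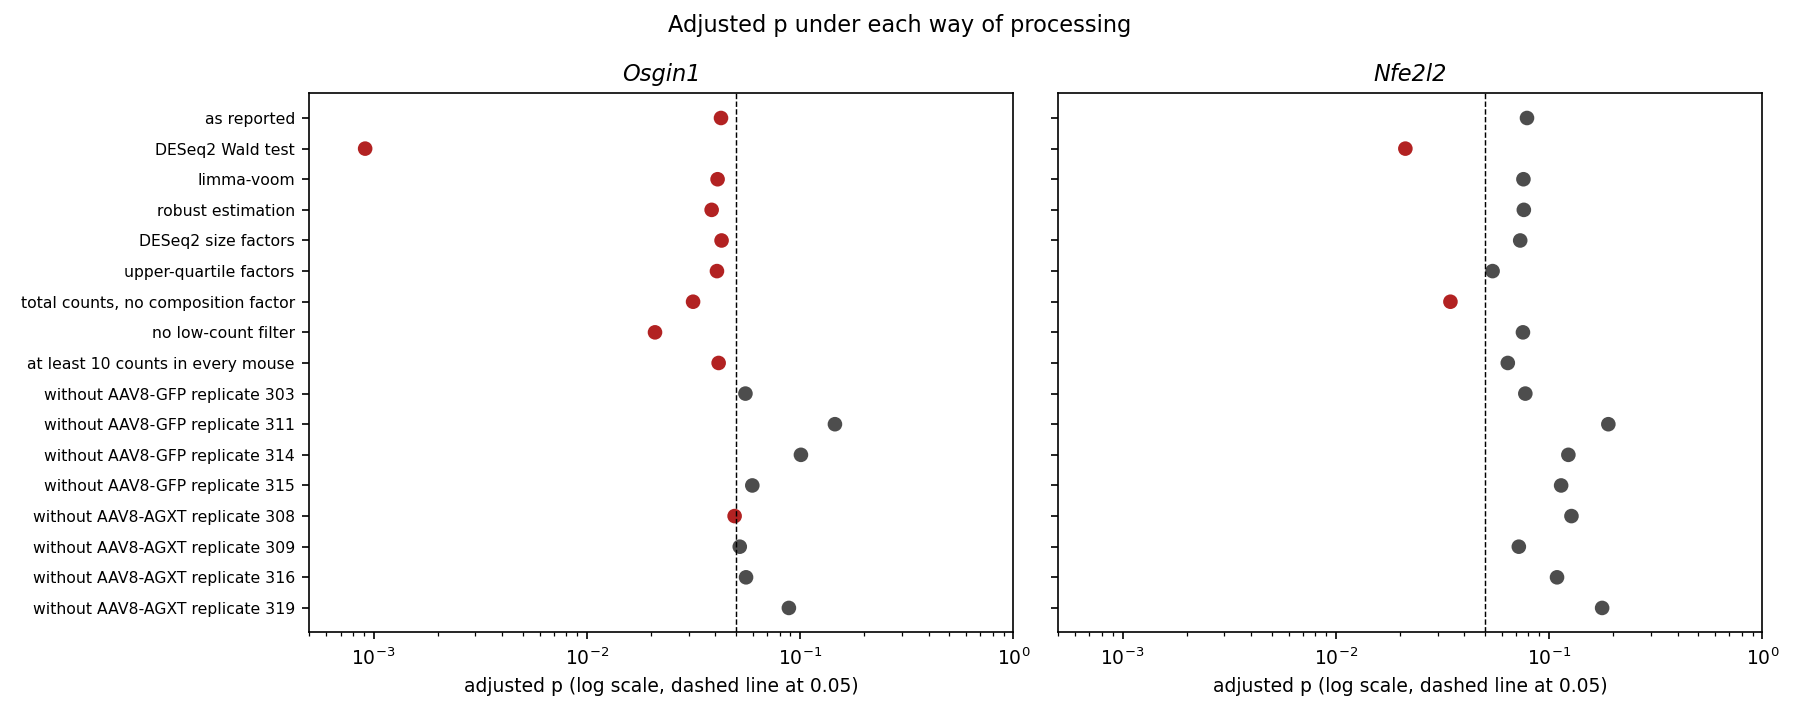
Adjusted p of Osgin1 and Nfe2l2 (horizontal axes, log scale) for each way of processing named on the vertical axis, with a dashed line at 0.05 and red points below it. Osgin1 passes in all 8 fits of 8 mice besides the reported one and in 1 of the 8 fits of 7 mice, whereas Nfe2l2 passes with DESeq2 and with total-count scaling.

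Keap1 (ENSMUSG00000003308, chromosome 9, 21229730 to 21239361, minus strand), the cytoplasmic inhibitor of NRF2, was not called. Its levels were 54.8, 51.8, 54.3 and 53.0 CPM in AAV8-GFP mice 303, 311, 314 and 315. They were 69.1, 55.3, 60.0 and 68.0 CPM in AAV8-AGXT mice 308, 309, 316 and 319. The groups did not overlap, but mouse 309 lay only just above mouse 303. The log2 fold change was 0.24 ± 0.10 (SE, edgeR adjusted p = 0.152). With total-count scaling the direction turned (log2 fold change -0.0063) and the groups overlapped. Over its exons, 10.9% of the bases are shared with Gm16754 on the opposite strand, and the strand setting of the counting is not given in the sources used here. Osgin1 and Nfe2l2 did not overlap between the groups under either scaling. Among all tested genes, groups did not overlap for 7.63% in the lower and 8.93% in the higher direction with TMM (16.6% in either), beside 2 lower and 1 higher of the 9 members. With total-count scaling the shares of all tested genes were 17.6% in the lower and 2.66% in the higher direction.

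The ratio of Keap1 to Nfe2l2 within a liver does not depend on how libraries are scaled. As CPM per kb of exon, the scale on which different genes can be compared, Keap1 stood at 0.401, 0.321, 0.359 and 0.262 of Nfe2l2 in AAV8-GFP mice 303, 311, 314 and 315. It stood at 0.599, 0.430, 0.479 and 0.636 of Nfe2l2 in AAV8-AGXT mice 308, 309, 316 and 319. The ratio was higher in every AAV8-AGXT mouse, with means of 0.336 ± 0.0592 and 0.536 ± 0.0973, and is given as a description with no test. With TMM, Keap1 was higher and Nfe2l2 lower in every AAV8-AGXT than in every AAV8-GFP mouse. The ratio therefore had to separate the groups and is no further evidence.

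**Figure D3:**
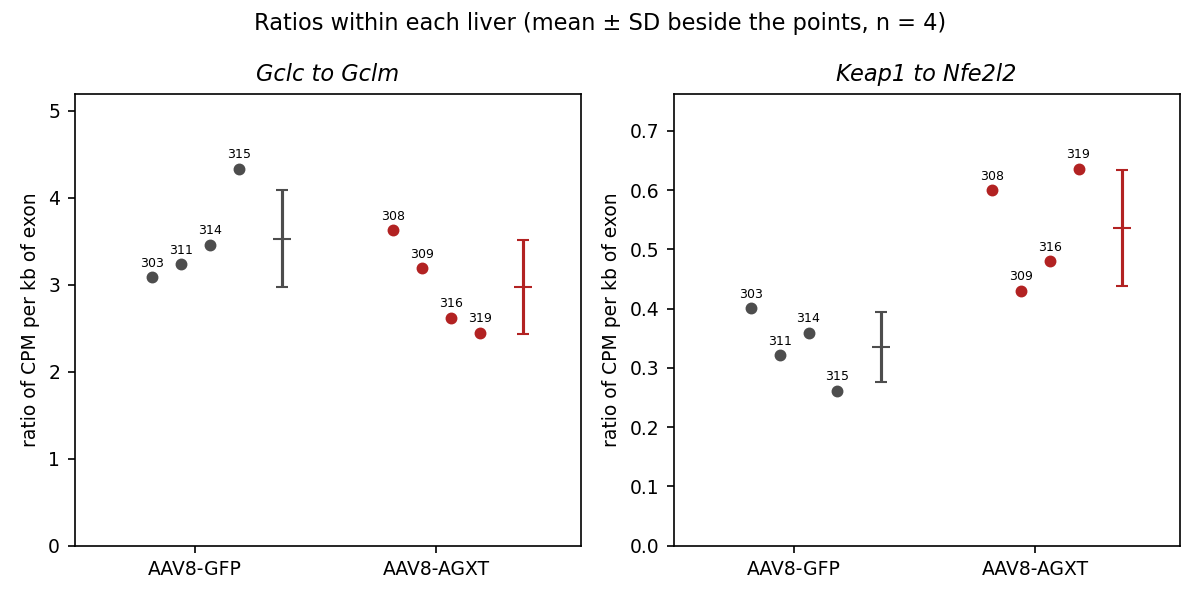
Ratio of CPM per kb of exon (vertical axes, from 0) of Gclc to Gclm and of Keap1 to Nfe2l2 in each mouse, with mean ± SD of 4 mice beside the points. The Keap1 to Nfe2l2 ratio does not overlap between the groups, at 0.262 to 0.401 in AAV8-GFP and 0.430 to 0.636 in AAV8-AGXT mice, and the Gclc to Gclm ratio overlaps. The separation of the Keap1 to Nfe2l2 ratio follows from the values of these genes themselves.

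Glutathione synthesis is represented by Gclc (ENSMUSG00000032350, chromosome 9, 77754535 to 77794485, plus strand), the catalytic subunit of glutamate-cysteine ligase, and Gclm (ENSMUSG00000028124, chromosome 3, 122245557 to 122270732, plus strand), its modifier subunit. Gclc had 244, 258, 360.4 and 444 CPM in AAV8-GFP mice 303, 311, 314 and 315, and 245, 294, 224 and 205 CPM in AAV8-AGXT mice 308, 309, 316 and 319. The high AAV8-GFP values were those of mice 314 and 315, while mice 303 and 311 lay among the AAV8-AGXT mice. The log2 fold change of Gclc was -0.43 ± 0.21 (SE, edgeR adjusted p = 0.213). Gclm had 132, 133, 174 and 171 CPM with AAV8-GFP and 113, 154, 143 and 140.0 CPM with AAV8-AGXT in the same order. Its groups overlapped, with a log2 fold change of -0.15 ± 0.14 (SE, edgeR adjusted p = 0.530), and 4.71% of its exon bases are shared with Gm17494 or Gm6061. Per kb of exon, the Gclc to Gclm ratio was 3.09, 3.24, 3.46 and 4.33 in the AAV8-GFP and 3.63, 3.19, 2.62 and 2.45 in the AAV8-AGXT mice. These ranges overlapped.

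Slc7a11 (ENSMUSG00000027737, chromosome 3, 49892526 to 50443614, minus strand) encodes the cystine importer xCT, which supplies cysteine for glutathione. It was barely detected in these livers, with 10, 17, 11 and 4 counts in AAV8-GFP mice 303, 311, 314 and 315 and 3, 6, 13 and 4 counts in AAV8-AGXT mice 308, 309, 316 and 319. Slc7a11 did not pass the low-count filter of edgeR, and a difference between the groups was not detectable at this depth (DESeq2 adjusted p = 0.904). The other 9 genes had at least 82 counts in every mouse.

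Txnrd1 (ENSMUSG00000020250, chromosome 10, 82833951 to 82897712, plus strand), thioredoxin reductase, and Srxn1 (ENSMUSG00000032802, chromosome 2, 152105516 to 152111376, plus strand), sulfiredoxin, which repairs overoxidized peroxiredoxins, were not called. Txnrd1 had 119, 120.2, 143 and 138 CPM with AAV8-GFP and 137, 151, 141 and 160.2 CPM with AAV8-AGXT. The groups overlapped, with a log2 fold change of 0.18 ± 0.11 (SE, edgeR adjusted p = 0.320), which turned to -0.055 with total-count scaling. Srxn1 had 136, 118, 115 and 126 CPM with AAV8-GFP and 138, 94.8, 152 and 122 CPM with AAV8-AGXT. Both the lowest and the highest Srxn1 value came from AAV8-AGXT mice, 309 and 316. Its log2 fold change was 0.032 ± 0.15 (SE, edgeR adjusted p = 0.914), with a sign that turned in 7 of 16 alternatives.

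Nqo1 (ENSMUSG00000003849, chromosome 8, 107388225 to 107403206, minus strand) encodes the quinone reductase that is often used as a readout of NRF2. It had 11.2, 8.94, 13.0 and 10.9 CPM with AAV8-GFP and 5.66, 8.65, 10.9 and 8.54 CPM with AAV8-AGXT. Mouse 308 was lowest, and mouse 316 lay within the AAV8-GFP range. The log2 fold change was -0.37 ± 0.20 (SE, edgeR adjusted p = 0.268).

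Hmox1 (ENSMUSG00000005413, chromosome 8, 75093621 to 75100589, plus strand) encodes heme oxygenase 1, which opens the heme ring and is abundant in macrophages that clear red cells as well as inducible in hepatocytes. It had 33.2, 42.2, 51.1 and 48.2 CPM in AAV8-GFP mice 303, 311, 314 and 315. In AAV8-AGXT mice 308, 309, 316 and 319 it had 12.3, 23.7, 33.4 and 42.5 CPM. Mice 308 and 309 lay below all AAV8-GFP mice, and mice 316 and 319 did not. The coefficient of variation, 46.4% among AAV8-AGXT and 18.1% among AAV8-GFP mice, was the largest of the 9 tested genes in the AAV8-AGXT group. The log2 fold change was -0.64 ± 0.31 (SE, edgeR adjusted p = 0.227).

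General macrophage markers and Hmox1 were lowest in the same mouse. The sum of 4 general macrophage markers (Adgre1, Cd68, Csf1r and Cd14) was 161, 230, 200.2 and 172 CPM in AAV8-GFP mice 303, 311, 314 and 315 and 57.2, 131, 150.1 and 199.0 CPM in AAV8-AGXT mice 308, 309, 316 and 319. Mouse 308, lowest for Hmox1, was lowest for this sum too, and within the AAV8-AGXT group both ran 308, 309, 316, 319 from lowest to highest. In the AAV8-GFP group the orders differed, since Hmox1 ran 303, 311, 315, 314 and the sum ran 303, 315, 314, 311. Of these 4 markers 0 passed the adjusted threshold in edgeR. An unadjusted p under 0.05 was found for 2, both lower, beside 12.6% of all tested genes. These were Cd68 and Cd14, named after their values were seen, and DESeq2 called both, beside 6.11% of the genes with an adjusted p. The other markers, Adgre1 and Csf1r, overlapped between the groups, with log2 fold changes of 0.13 and -0.27. The sum of 8 markers of monocyte-derived and lipid-associated macrophages ranged from 621 to 1295 CPM with AAV8-GFP and from 146 to 644 CPM with AAV8-AGXT (two-sided exact permutation test, p = 0.0571, adjusted p = 0.190 over 10 marker lists). All 8 means were lower, beside 47.7% of all tested genes. In edgeR 1, Cd9, was called lower, beside 1.90%, and 4 had an unadjusted p under 0.05, all lower, beside 12.6%. DESeq2 called 4 lower, Trem2, Spp1, Cd9 and Itgax, beside 6.11% of the genes with an adjusted p. Spp1, which the cholangiocyte list also holds, made up 48.4% and 37.3% of the mean sums, and without it, as chosen after seeing the data, the ranges were 389 to 683 CPM and 86.0 to 427 CPM. The sum of 5 Kupffer cell markers ranged from 230.3 to 362 CPM and from 179.8 to 739.7 CPM, and no marker of the 3 lists was at 0 in all mice. Clec4f and Cd5l carried most of the Kupffer sum, with log2 fold changes of 0.45 and -0.022. Timd4 and Marco, scarcer Kupffer markers named after their values were seen, had log2 fold changes of 2.49 and 3.63 (edgeR adjusted p = 0.0736 and 0.0801), DESeq2 called Timd4 (adjusted p = 0.00353), and both were highest in mouse 319, at 13.6 and 156 CPM. The part of macrophages in the Hmox1 values was not tested.

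**Figure D4:**
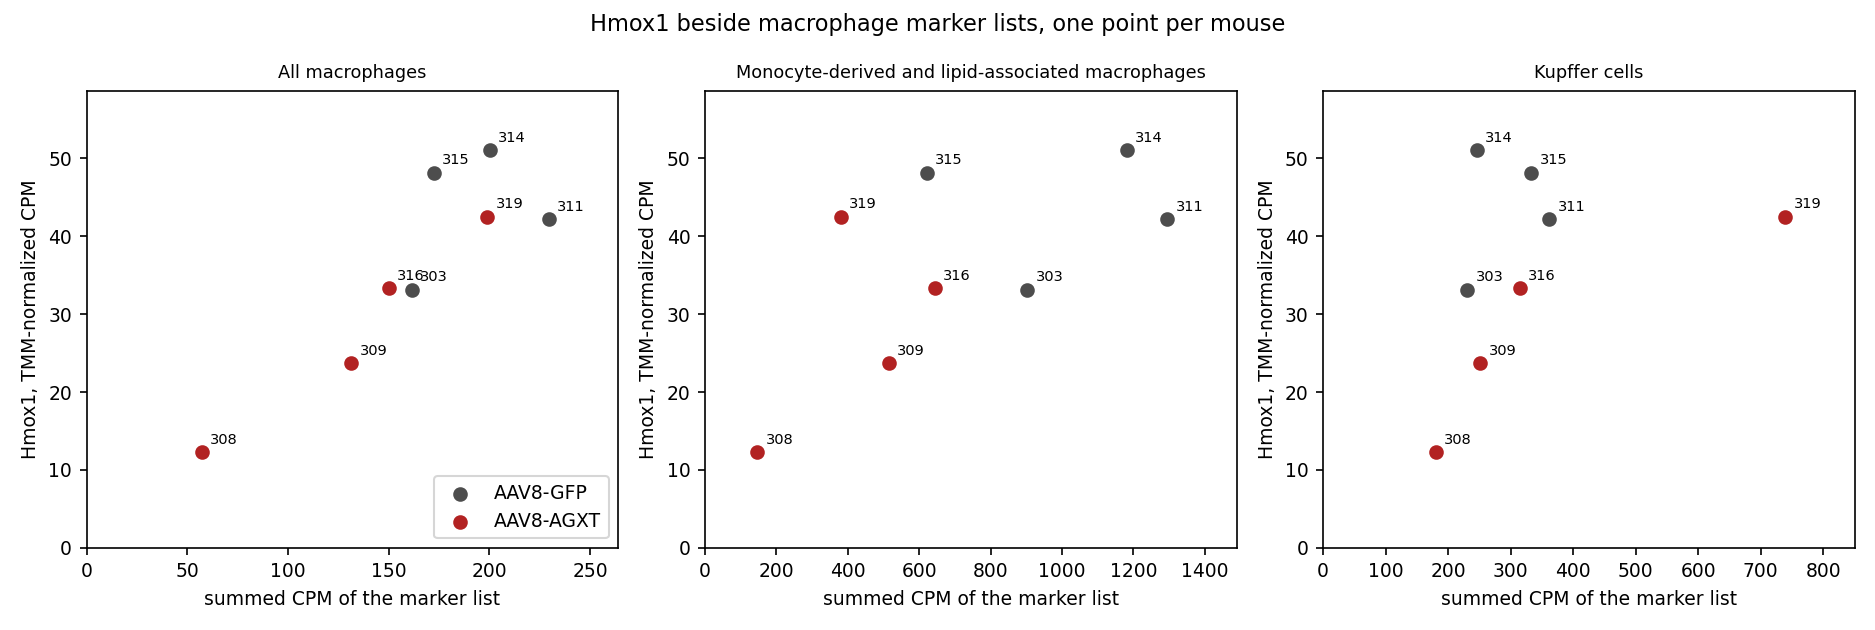
Hmox1 in TMM-normalized CPM (vertical axes) against the summed CPM of 3 macrophage marker lists (horizontal axes), 1 point per mouse labelled by animal number. Mouse 308 is lowest on every axis, and mouse 319 has the highest Kupffer cell sum, 739.7 CPM.

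Other marker lists were also set beside these genes. The 5 cholangiocyte markers summed to between 225 and 673 CPM with AAV8-GFP and between 74.1 and 272 CPM with AAV8-AGXT, and Spp1 made up 90.8% and 87.9% of the mean sums. Without Spp1 the ranges were 23.5 to 62.6 CPM and 13.7 to 33.2 CPM. All 5 had an unadjusted p under 0.05 in the lower direction, beside 12.6% of all tested genes, and 0 passed the adjusted threshold in edgeR. DESeq2 called 4 lower, beside 6.11% of the genes with an adjusted p. The 5 stellate cell and myofibroblast markers summed to between 316 and 504 CPM and between 174 and 388 CPM. Of these, edgeR called 1 lower, Acta2 (adjusted p = 0.0427), beside 1.90% of all tested genes. DESeq2 called 2 lower, Col1a1 and Acta2, beside 6.11% of the genes with an adjusted p. Sinusoidal endothelium ranged from 109.8 to 164 and from 113 to 215 CPM, T cells from 5.62 to 9.58 and from 2.62 to 6.93 CPM, neutrophils from 4.23 to 12.4 and from 2.14 to 8.68 CPM, and B cells from 2.29 to 6.37 and from 2.58 to 4.37 CPM. In these lists edgeR called no marker, and DESeq2 called only Cd8a of the T cell list, as lower (adjusted p = 0.00537). With TMM, only the hepatocyte sum did not overlap between the groups (exact permutation p = 0.0286, the smallest that 4 against 4 allow, adjusted p = 0.190). Alb made up most of it, at 29998 of 47053 CPM and 37995 of 60813 CPM in the means. Singly, 1 of the 5 markers did not overlap, Cps1, which edgeR called higher (adjusted p = 0.0279), beside 2.45% of all tested genes. The TMM factors were 1.02 to 1.14 with AAV8-GFP and 0.83 to 1.00 with AAV8-AGXT, and sums with total-count scaling were not examined. The part of these cells in the results was not tested.

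Per kb of exon, Osgin1 was the most abundant of the 10 genes in both groups, at 147 ± 18.7 CPM per kb in AAV8-GFP and 81.9 ± 18.5 CPM per kb in AAV8-AGXT mice. Gclc came next, at 86.7 ± 24.9 and 64.2 ± 10.2 CPM per kb. The ranges of Osgin1 and Gclc were apart in AAV8-GFP mice and overlapped in AAV8-AGXT mice. Srxn1 and then Nfe2l2 followed in both groups. In AAV8-GFP mice Srxn1, Nfe2l2, Hmox1 and Gclm stood in that order, and each overlapped its neighbour in it. In AAV8-AGXT mice the same held for Nfe2l2, Gclm, Txnrd1, Hmox1 and Keap1. Nqo1 was last but 1, at 7.08 ± 1.06 and 5.44 ± 1.39 CPM per kb, and Slc7a11 last, at 0.0286 and 0.0256 CPM per kb.

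Among single mice, AAV8-AGXT mouse 308 was lowest of the 8 for 4 of the 9 tested genes, Nqo1, Gclm, Hmox1 and Osgin1, and highest for Keap1. Mouse 308 also had the smallest share of pairs on genes. Without it, the log2 fold change was -0.70 for Osgin1 (adjusted p = 0.0493 from edgeR), -0.40 for Hmox1 and -0.24 for Nqo1. Mouse 319 was lowest for Nfe2l2 and Gclc and highest for Txnrd1. In the AAV8-GFP group, mouse 314 was highest for Nqo1, Gclm and Hmox1, and mouse 315 for Nfe2l2 and Gclc.

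Genes of other proteins that control or pair with NRF2 did not pass the threshold. Of 12 such genes, among them the ligase parts Cul3 and Rbx1, the small MAF genes and Sqstm1, 0 were called in edgeR, 3 had an unadjusted p under 0.05, all higher, and DESeq2 called Bach1. The 3 of 12 stand beside 26.2% of all tested genes in either direction and 13.5% in the higher direction. Bach1, a heme-regulated repressor that competes with NRF2 at Hmox1 and other target genes, had 17.2, 24.2, 32.9 and 32.6 CPM with AAV8-GFP and 41.3, 55.9, 33.5 and 42.4 CPM with AAV8-AGXT. With TMM, all AAV8-AGXT values were above the AAV8-GFP values, mouse 316 by little, as for 8.93% of all tested genes. The log2 fold change was 0.70 ± 0.22 (SE, edgeR adjusted p = 0.0875, DESeq2 adjusted p = 0.0378). Dpp3, a peptidase that binds KEAP1, had a log2 fold change of 0.37 ± 0.12 (SE, edgeR adjusted p = 0.0975), with overlapping groups.

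A list of 42 further genes known as NRF2 targets in liver had 40 tested genes. Of these, 1 rose and 2 fell, beside 2.45% and 1.90% of all tested genes. Their log2 fold changes lay on both sides of 0, with 19 positive, 21 negative and a median of -0.037. DESeq2 called 4 of them higher and 9 lower, beside 6.29% and 6.11% of the genes with an adjusted p. With total-count scaling 0 rose and 8 fell in edgeR, beside 144 and 857 of all 15248 tested genes. With TMM, groups did not overlap for 5 in the higher and 10 in the lower direction, beside 8.93% and 7.63% of all tested genes.

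In the glutathione class, 0 of 11 tested genes rose and 2 fell, beside 2.45% and 1.90% of all tested genes. DESeq2 called 5 lower and 0 higher, beside 6.11% and 6.29% of the genes with an adjusted p. Gss, Gsta4 and Gstm2 were added as lower (DESeq2 adjusted p = 0.0218, 0.0363 and 0.0166). Gstm3, a glutathione S-transferase of the mu class, had 53.2, 76.2, 98.3 and 126 CPM with AAV8-GFP and 8.70, 36.4, 23.3 and 11.7 CPM with AAV8-AGXT. It fell from 88.5 ± 31.1 to 20.01 ± 12.6 CPM, a log2 fold change of -2.14 ± 0.43 (SE, edgeR adjusted p = 0.0363). Gstm1, of the same gene cluster on chromosome 3, had 1253, 1395, 1391 and 1896 CPM with AAV8-GFP and 882, 1048, 933 and 694 CPM with AAV8-AGXT, with a log2 fold change of -0.74 ± 0.18 (SE, edgeR adjusted p = 0.0493). Every AAV8-AGXT mouse was below every AAV8-GFP mouse for both genes. The mu class genes are close paralogs whose reads may be shared, so their separate values are uncertain. The Gstm3 call was lost without mouse 311, 314, 308, 316 or 319 (adjusted p from edgeR 0.0532 to 0.126), and the Gstm1 call in each such fit except that without mouse 309 (0.0693 to 0.143).

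In the thioredoxin class, Prdx6, a peroxiredoxin that also acts on phospholipids, rose. It had 434, 409, 421 and 488 CPM with AAV8-GFP and 804, 587, 586 and 682 CPM with AAV8-AGXT, with no overlap. The log2 fold change was 0.60 ± 0.14 (SE, edgeR adjusted p = 0.0461). The call was lost in each fit that left out 1 mouse except that without mouse 309 (adjusted p from edgeR 0.0509 to 0.157). The other 2 of the class, Txn1 and Prdx1, had log2 fold changes of -0.11 and 0.092 and overlapped between the groups.

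None of 6 NADPH genes, 11 detoxification genes, 5 iron and heme genes and 4 efflux transporters was called in edgeR, where 3, 6, 1 and 3 of them had an unadjusted p under 0.05, beside 26.2% of all tested genes. DESeq2 called Ugt1a6a, Akr1c13 and Abcc3 higher and Pgd, Cbr1, Ptgr1 and Abcc1 lower, beside 6.29% and 6.11% of the genes with an adjusted p. Over the exons of Ugt1a6a, 50.3% of the bases are shared with other Ugt1a genes on the same strand, so its value is uncertain. Of the 6 NADPH genes, 3 did not overlap between the groups in the lower direction, beside 7.63% of all tested genes. These, Pgd, Taldo1 and Tkt of the pentose phosphate pathway, chosen after their values were seen, had lower values with AAV8-AGXT, with log2 fold changes of -0.44, -0.24 and -0.28 (adjusted p = 0.0724, 0.181 and 0.154 from edgeR). G6pdx, the entry enzyme of that pathway, overlapped (log2 fold change -0.44, edgeR adjusted p = 0.336), as did Me1 and Idh1, with log2 fold changes of 0.065 and 0.29. The ferritin subunits Fth1 and Ftl1, likewise chosen after their values were seen, had log2 fold changes of -0.0085 and 0.079, and their many pseudogenes make these counts uncertain.

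**Figure D5:**
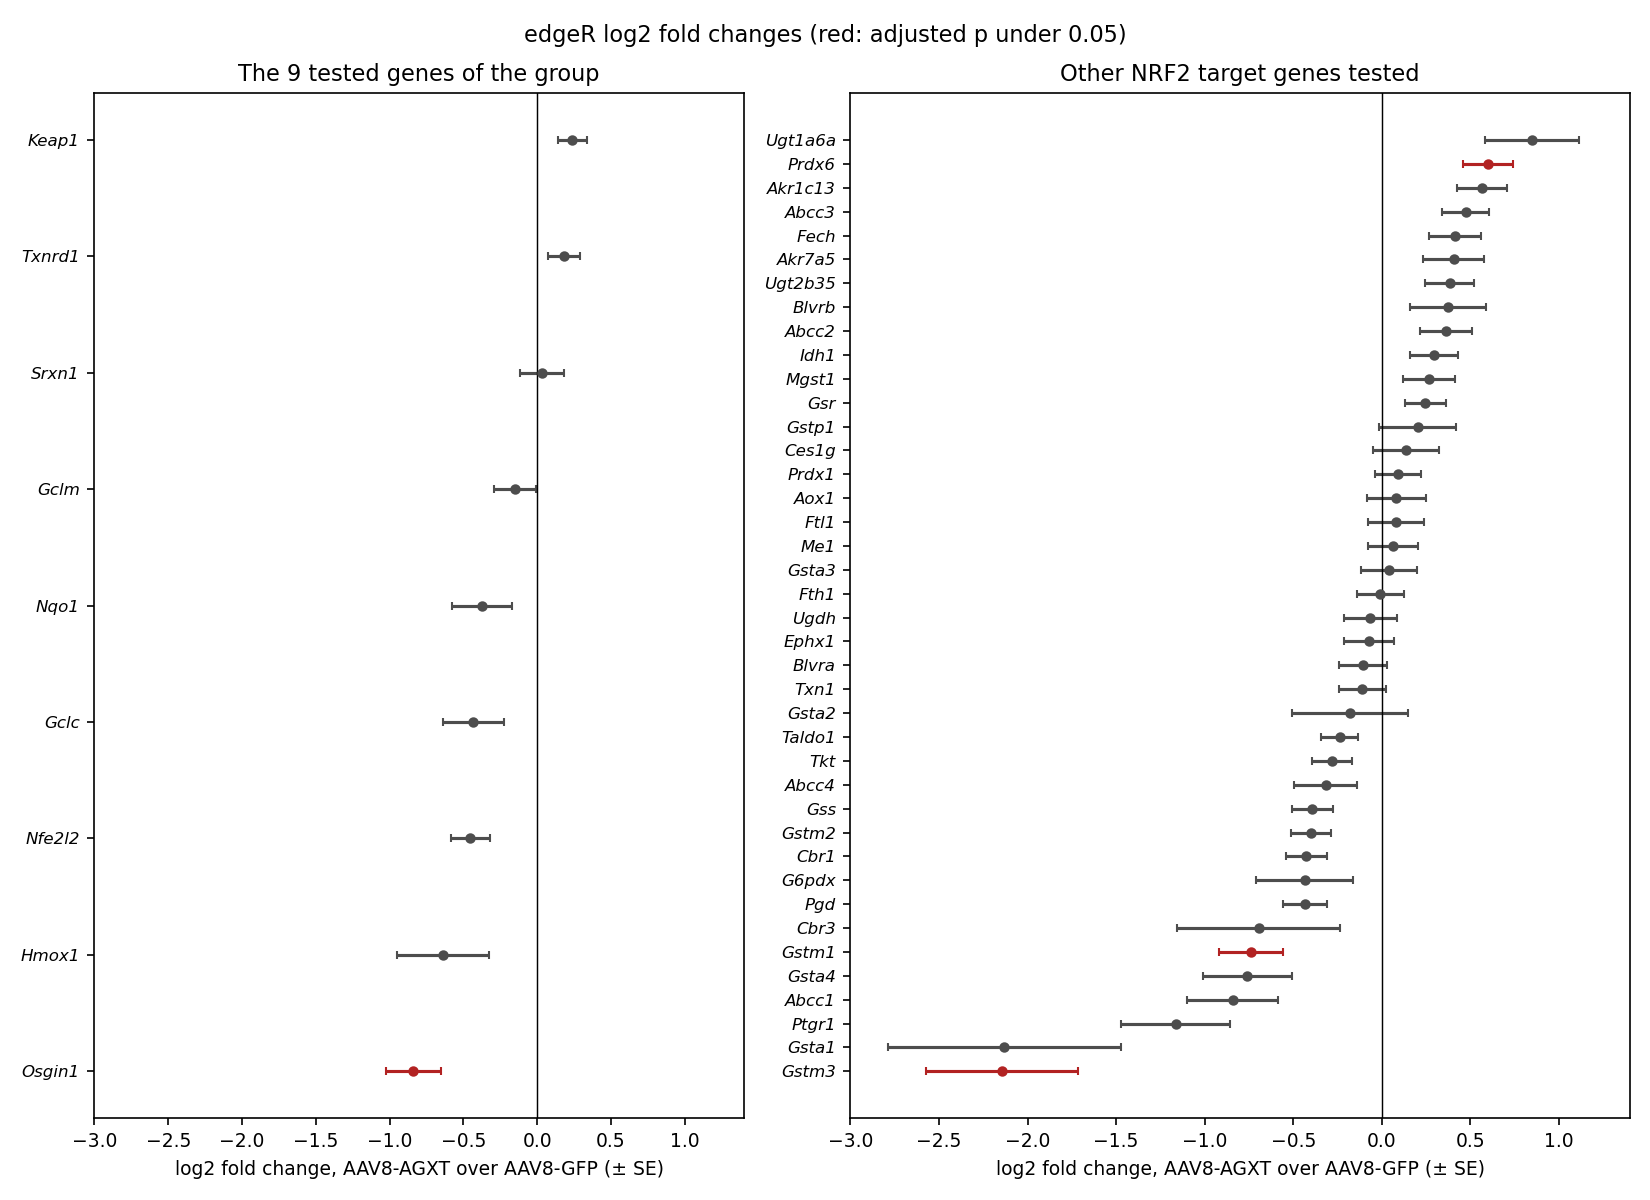
Log2 fold changes of AAV8-AGXT over AAV8-GFP (horizontal axes, ± standard error, n = 4 per group) of the 9 tested genes and of 40 other NRF2 target genes, with genes past an adjusted p of 0.05 in red. Osgin1, Gstm3 and Gstm1 are red on the lower side and Prdx6 on the higher side, and the other NRF2 target genes lie on both sides of 0.

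Slc7a11 and other amino acid genes are also driven by ATF4, a factor of the integrated stress response. Of 11 listed ATF4 target genes, 1 rose and 1 fell, beside 2.45% and 1.90% of all tested genes. At an unadjusted p under 0.05, 1 was higher and 3 were lower, beside 13.5% and 12.6%. DESeq2 called 1 higher and 2 lower, beside 6.29% and 6.11% of the genes with an adjusted p, adding Ddit3 as lower (DESeq2 adjusted p = 0.0442). Cth, cystathionine gamma-lyase, which makes cysteine, rose from 157 ± 28.4 to 272 ± 39.9 CPM, with a log2 fold change of 0.79 (edgeR adjusted p = 0.0363). Slc3a2, the heavy chain that carries xCT and other transporters, fell from 79.3 ± 5.21 to 53.8 ± 7.94 CPM, with a log2 fold change of -0.56 (edgeR adjusted p = 0.0376). Neither gene overlapped between the groups. The list's median log2 fold change was -0.56, against 0.018 over all tested genes. The Cth call was lost without mouse 303, 311, 314, 308, 316 or 319 (adjusted p from edgeR 0.0555 to 0.137), and the Slc3a2 call in each such fit except that without mouse 316 (0.0512 to 0.135).

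Of 7 genes linked to heme and BACH1, 2 rose and 0 fell, beside 2.45% and 1.90% of all tested genes. One of these 2, Cd163, was already named by the paper among the most significantly raised genes in the same livers. The list was chosen with earlier results known, so its counts are a description and not a test. DESeq2 called 4 higher, beside 6.29% of the genes with an adjusted p. Those added were Hmox2 (DESeq2 adjusted p = 0.0208) and Bach1, which is also one of the 12 controllers. With TMM, groups did not overlap for 4 of the 7 in the higher direction, these 2 included, beside 8.93% of all tested genes. Overlap with total-count scaling was not examined for this list. Over the exons of Hmox2, 40.2% of the bases are shared with Cdip1 on the opposite strand, so its value is uncertain. Alas1, the rate-limiting enzyme of heme synthesis, had 608, 691, 539.5 and 325 CPM with AAV8-GFP and 928, 1492, 1093 and 1656 CPM with AAV8-AGXT, a log2 fold change of 1.26 ± 0.26 (SE, edgeR adjusted p = 0.0366). It overlaps a gene on the opposite strand over 7.53% of its exon bases. Cd163, the haemoglobin scavenger receptor of macrophages, also rose (log2 fold change 3.88, adjusted p = 0.0236 from edgeR), at 11.3, 14.8, 4.57 and 34.0 CPM in AAV8-AGXT mice and at most 1.44 CPM in AAV8-GFP mice. The order of the AAV8-AGXT mice for Cd163 differed from that for Hmox1. Mouse 319 was highest for Cd163, as it was for the Kupffer markers Timd4 and Marco, and the part of Kupffer cells in the Cd163 values was not tested. The Alas1 call was lost without mouse 303, 311, 314, 309 or 319 (adjusted p from edgeR 0.0539 to 0.124), and the Cd163 call without mouse 311 or 314 (0.0798 to 0.115).

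The tested genes with the pattern most like 3 of the members were found by the mean absolute difference of mean-centred log2 CPM over the 8 mice. For Nfe2l2 they were Pak4, Ino80d and E2f1, with mean differences of 0.0547, 0.0557 and 0.0613, where the median tested gene had 0.338. For Nqo1 they were Ablim1, Fbln7 and Nrm, at 0.0951, 0.107 and 0.113, where the median was 0.359. For Hmox1 they were Fcgr4, Slc11a1 and Pilra, at 0.0868, 0.107 and 0.127, where the median was 0.538. None of these 9 genes passed the adjusted threshold in edgeR, with adjusted p between 0.0714 and 0.280.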

How the data were processed

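Liver mRNA of 8 mice was sequenced as stranded paired-end libraries, 1 per mouse. According to the paper's methods and the submitters' processing notes, the authors used Trimmomatic 0.35 for trimming, HISAT2 2.1.0.13 for alignment to GRCm38 and HTSeq for counts per Ensembl gene. The deposited values are raw counts, and strand option and overlap mode are not given in the sources used here. HTSeq's tallies of uncounted pairs, 30.9% to 43.7% of all pairs, were left out. Symbols, positions and exon lengths came from GENCODE M21 on the same build, which matched 52489 of 52636 genes.

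Genes kept by filterByExpr were tested in R 4.3.3 with edgeR 4.0.16 (TMM, quasi-likelihood, treatment as the only term, n = 4 mice per group). Log2 CPM used a prior count of 2. DESeq2 1.42.0, limma-voom (limma 3.58.1), other scalings, filters and leaving out each mouse were alternatives. The scripts were tested on simulated data. Members and lists were chosen with earlier results of these data known. Named list genes are those called (the 4 with the smallest p in each direction where more pass), the 2 with the smallest p where fewer than 2 pass, and the 3 most like Nfe2l2, Nqo1 and Hmox1, unless said otherwise. The labels do not pair mice across groups.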

Additional observations from a re-analysis of the deposited data

Results flagged for a closer look

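Each of the 10 genes and the 9 other genes named by rule was checked in each group of 4 mice for a value far from the other 3, by Dixon's gap test at the 95% level, which flags about 1 in 20 groups by chance. Of 38 such groups, 3 held one. Osgin1 in AAV8-GFP mice was lowest in mouse 303, at 318 CPM, whereas the other 3 had between 408 and 424 CPM. Osgin1 in AAV8-AGXT mice was lowest in mouse 308, at 146 CPM, whereas the other 3 had between 235 and 252 CPM. Cth in AAV8-AGXT mice was lowest in mouse 309, at 212 CPM, with the other 3 between 289 and 295 CPM.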

How the results depend on the processing

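No paired analysis was possible because the animal numbers are not shared between the groups. Of 144 alternative values for the 9 tested genes, 126 kept direction and side of the threshold. Most of these were for genes not called in the reported fit, which had no call to lose. For Osgin1, the only called gene, 9 of 16 alternatives kept both. The Osgin1 call was lost in 7 and Nfe2l2 was called in 2. The log2 fold change of Srxn1 turned to -0.032 with upper-quartile factors, -0.21 with total counts and -0.0099 with at least 10 counts in every mouse, and ranged from -0.064 to 0.13 with each mouse left out, below 0 without mice 311, 314, 308 and 316. With total counts Keap1 came to -0.0063 and Txnrd1 to -0.055, and the median gene shifted by -0.24.

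With DESeq2, 1054 genes were higher and 1024 lower, against 374 and 290, with 2 members lower, against 1, and 4 other NRF2 targets higher and 9 lower, against 1 and 2. With total counts these numbers were 144, 857, 2, 0 and 8. Robust estimation gave 2 other targets higher, and no low-count filter gave 2 higher and 4 lower. Leaving out 1 mouse gave 2 to 379 higher and 0 to 325 lower genes, 0 members higher, 0 to 1 lower, and 0 to 3 other targets higher and 0 to 2 lower. The fewest calls, 2 higher and 0 lower genes, came without mouse 311. The causes were not tested.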
